A study of Mus musculus with 4 samples.

Results

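The genes described here were 35 named targets and regulators of the tumour suppressor p53, followed gene by gene in mouse mammary organoids. They were taken by name from a list that was chosen with earlier results of these data known. Of the 35 names, 34 were found among the 32285 genes counted. The remaining name, Tap63, had no feature of its own and is given no value. Organoids, which are epithelial structures grown in gel, were derived from mammary glands of female virgin wild-type mice and of littermates carrying 1 truncating allele of Brca2 in the germline (Brca2mut/WT). The study describes mice aged 9 to 11 months for its repeated exposures to hydroxyurea (HU), a drug that stalls DNA replication, with 1 mM HU for 24 h and 4 days of recovery before each passage. Control organoids of each genotype received no HU. Single cells were profiled in 4 droplet libraries, 1 each for wild-type control, wild-type HU, Brca2mut/WT control and Brca2mut/WT HU. All organoids had been frozen, thawed and cultured for 3 days before capture, so the libraries show cells after recovery, not during exposure. The study profiled passages 0 and 4 and the labels give 2 replicates per library, but cells carry no key to passage or mouse.

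p53 is a transcription factor that is kept low by Mdm2, an enzyme that marks it for destruction, and by the related Mdm4. Damaged or stalled DNA activates kinases that release p53 from this control, and p53 then raises genes that halt the cell cycle, assist DNA repair, alter metabolism or promote cell death. Mdm2 is itself a target, which closes a feedback loop. The mammary epithelium has an outer basal layer and an inner luminal layer, whose cells either express hormone receptors (HR+) or do not (HR-). The HR- cells include the progenitors of milk-secreting cells.

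p53 binds DNA as a tetramer that reads a pair of half-sites, and the promoters of the genes were searched for such pairs because they show how the target sequence is built. Windows of 250 bases before to 50 after each start site, from RefSeq on GRCm38.p6, were held for 28 of the 34 genes. The p53 half-site consensus, 10 bases long and the same on both strands, was required in 2 copies with up to 13 bases between them and its central C and G intact. With up to 2 mismatches such a pair was present in 3 of 28 genes (10.7%), against 4.71% of 27025 genes with a window. With up to 1 mismatch the only gene was Ccng1, against 0.718% of all genes. Shown in capitals are the half-sites of the 3 genes and of Bax and Rps27l, other p53 pathway genes described later.
Ccng1: gccAGACCTGCCCGGGCAAGCCTtgg
Sesn1: tggGCGCTTGGCCttcAAGCTTGTTTttg
Cd80: tcaGAACAGGCCTGGACAAGTCAcct
Bax: cccAGGCAAGCTTtGAACTTGCGGcaa
Rps27l: ggcGGGCTTGTTGAGACTTGTCCggg
The printed bases lie at chr11:40755459-40755484 on the minus strand for Ccng1, chr10:41887250-41887278 on the plus strand for Sesn1 and chr16:38458819-38458844 on the plus strand for Cd80. Those of Bax lie at chr7:45467076-45467102 on the minus strand and those of Rps27l at chr9:66946293-66946318 on the plus strand. The printed bases of Sesn1, Cd80 and Rps27l lie inside the annotated genes, which begin at chr10:41809935, chr16:38455561 and chr9:66946086. Their windows therefore belong to start sites downstream of the annotated gene start. The pair held 1 mismatch in Ccng1 and Rps27l and 2 in Sesn1, Cd80 and Bax. Cdkn1a, the classical p53 target that encodes the cell cycle inhibitor p21, held a pair without mismatch and with 12 bases between the half-sites. A pair without mismatch, at any spacing allowed, was present in 0.074% of all genes. A match of letters is a description of the window and not evidence of binding, and sites outside the window were not searched.

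The values are deposited counts of distinct molecules, each marked by a unique molecular identifier (UMI), for every gene in every cell. Of 33268 cells, 17360 met the study's filter of 1000 to 6000 genes and under 5% mitochondrial content, with 5312, 4617, 4138 and 3293 cells in wild-type control, wild-type HU, Brca2mut/WT control and Brca2mut/WT HU and a median of 24180 to 26893 UMIs per cell. Cells were assigned to a lineage by gates on the share of their UMIs taken by a single gene, scaled to 1000000 UMIs (counts in this scale are written CPM). Basal cells had at least 500 CPM of the keratin Krt14, HR+ luminal cells at least 300 CPM of the growth factor Areg, and HR- luminal cells under 300 CPM of both. This gave 14008 HR- luminal, 2217 basal and 569 HR+ luminal cells, while 109 cells that passed both gates and 457 cells between the gates were left out. The 6 basal markers summed to 3469 to 3934 CPM in basal cells, with no more than 152 elsewhere, and the 5 HR+ markers to 1262 to 1633 CPM in HR+ luminal cells, with no more than 113 elsewhere. The 5 HR- markers summed to 4660 to 5726 CPM in HR- luminal cells, with no more than 1019 elsewhere, so each gate held the markers of the lineage it is named for. The defining immune marker Ptprc was at 0 in all lineages and the immune list summed to at most 0.711 CPM. Library pairs shared 16 to 30 cell barcodes. UMIs of each gene were summed over the cells of a lineage in a library and divided by the lineage's total, which in HR- luminal cells was 71024638 to 103837852 UMIs. With 1 library per condition no test between HU and control was possible within a genotype, and the 95% intervals given are exact and cover counting error only. A gene was called higher where its level exceeded that of the other library by over 25%, and lower where the other library exceeded it by over 25%, and was called only if it had a mean of at least 5 CPM and 100 UMIs over the 4 libraries in that lineage, which 25 of the 34 genes met in HR- luminal cells, 25 in basal cells and 17 in HR+ luminal cells.

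In HR- luminal cells several p53 targets were higher in the HU library of both genotypes. The list was chosen with earlier results of these data known, so its counts beside the shares of all genes are a description. Of the 25 genes, 8 were higher past the 25% limit in wild type, where 3.6% of all 9364 genes were, and 5 in Brca2mut/WT, where 3.06% of all genes were. Aen, Phlda3, Sesn2, Zmat3 and Trp53inp1 were higher in both genotypes, a call made for 1.07% of all genes. Ccng1, Psrc1 and Dcxr were higher past the 25% limit in wild type alone, while in Brca2mut/WT they were higher by less than that. With the antibody tag pools described below weighted equally, 8 genes were higher in each genotype. Whether the genotypes differed was not tested. Epha2 was the only one of the 25 that was lower past the 25% limit, and it was so in both genotypes (5.72% of all genes in wild type, 4.05% in Brca2mut/WT and 2.11% in both). The median log2 ratio of HU to control was 0.22 for the 25 genes and 0.01 for all genes in wild type, and 0.11 and 0.01 in Brca2mut/WT.

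HU was also tested over both genotypes together, with genotype as a block in edgeR's quasi-likelihood test and Benjamini-Hochberg adjustment over all genes. This test was chosen after seeing the data. Its 4 libraries leave 1 residual degree of freedom, so the spread of each gene was largely borrowed from all genes, and any difference in the HU effect between genotypes counts as error. In HR- luminal cells 9 of 25 genes were higher with HU at an adjusted p under 0.05, against 4.94% of all genes, and 2 were lower, against 8.3%. The higher genes were Aen, Sesn2, Trp53inp1, Phlda3, Zmat3, Ccng1, Dcxr, Psrc1 and Perp, and the lower ones were Epha2 and Polk. Aen had a log2 fold change of 0.74 (SE 0.08, adjusted p = 2.95e-09 by edgeR), and Epha2 fell by 0.52 (SE 0.08, adjusted p = 1.51e-06 by edgeR). The calls depended on the fit. DESeq2 called 6 of the 25 genes, all of them among the 11 (Aen, Sesn2, Trp53inp1, Phlda3, Ccng1 and Epha2), against 237 of all 9364 genes. Without the genotype block 2 of the 25 were called (Aen and Epha2), against 70 of all 9364. Without the filter on low values edgeR called 0 of 34 genes and 0 of all 19595. At an unadjusted p under 0.05 were 13 of the 34 and 2757 of all genes, and Aen had an adjusted p of 0.211 by edgeR.

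**Figure D1:**
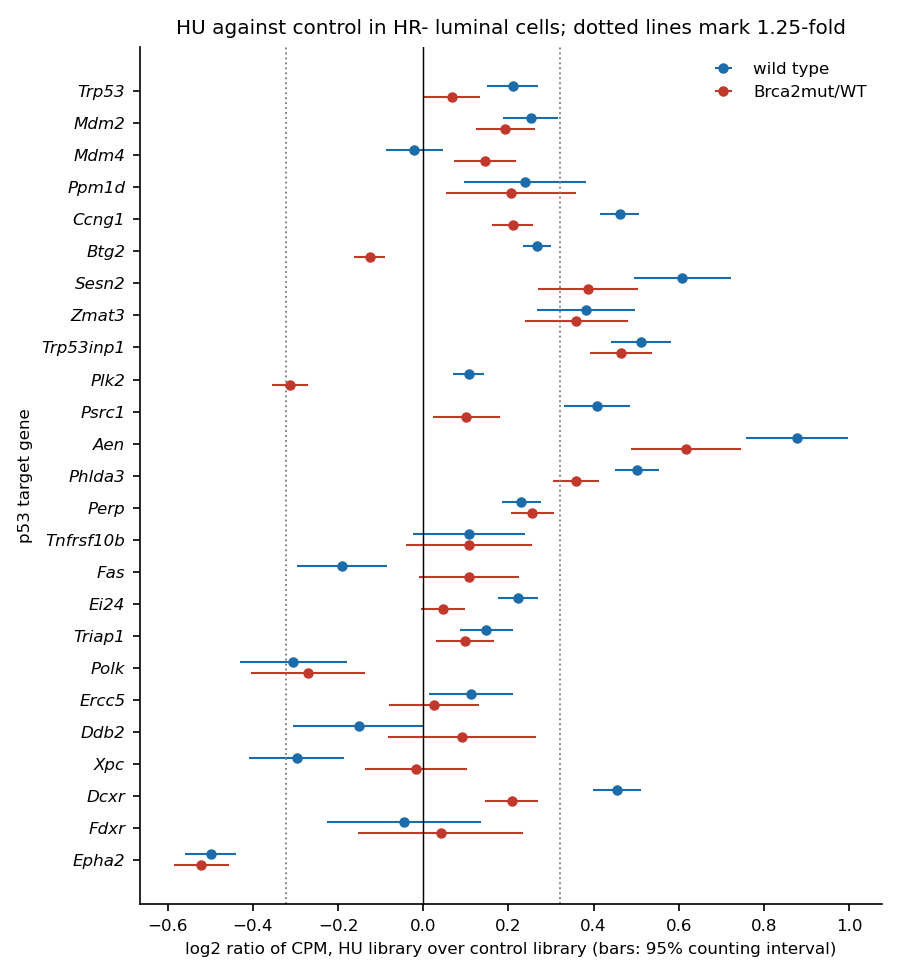
The plot gives the log2 ratio of CPM between the HU and the control library in HR- luminal cells for the 25 p53 target genes that passed the filter, in wild type (blue) and Brca2mut/WT (red), with bars for the 95% counting interval and dotted lines at the 25% limit. Aen lies furthest to the right at 0.88 and 0.62, and Epha2 furthest to the left at -0.50 and -0.52.

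The regulators of p53 differed little between the libraries of HR- luminal cells. Trp53, the gene of p53 itself, had 44.5 and 51.5 CPM in control and HU cells of wild type and 46.7 and 49.0 CPM in those of Brca2mut/WT. The log2 ratio of HU to control was 0.21 (0.15 to 0.27) in wild type and 0.07 in Brca2mut/WT, with a lower bound at 0.00. Since p53 is regulated mainly as a protein, its transcript level says little of its activity. Mdm2 had 38.2, 45.5, 40.2 and 45.9 CPM in the order wild-type control, wild-type HU, Brca2mut/WT control and Brca2mut/WT HU, with log2 ratios of 0.25 (0.19 to 0.32) and 0.19 (0.12 to 0.26). Both HU libraries were thus above both controls for Mdm2, by less than the 25% limit. Mdm4 had 38.7, 38.1, 37.0 and 40.9 CPM, and its ratio was -0.02 (-0.09 to 0.05) in wild type and 0.14 (0.07 to 0.22) in Brca2mut/WT. Ppm1d, a phosphatase that switches the p53 response off, had 7.82, 9.23, 8.40 and 9.69 CPM, again with both HU libraries on top. Its log2 ratios were 0.24 (0.10 to 0.38) and 0.21 (0.05 to 0.36).

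Among the genes of cell death and its control, Aen and Phlda3 stood highest over their controls. Aen encodes a nuclease that degrades DNA during apoptosis. In wild type it had 9.08 CPM (8.51 to 9.68) in the control and 16.7 (15.8 to 17.6) with HU, a log2 ratio of 0.88 (0.76 to 1.0). In Brca2mut/WT it had 10.1 CPM (9.41 to 10.8) in the control and 15.4 (14.5 to 16.4) with HU, a log2 ratio of 0.62 (0.49 to 0.75). Both HU libraries were therefore above both control libraries beyond counting error. Phlda3, which restrains the survival kinase Akt, had 54.9, 77.7, 63.6 and 81.6 CPM in the order given for Mdm2. Its log2 ratios were 0.50 (0.45 to 0.55) and 0.36 (0.31 to 0.41). Perp, a protein of cell junctions that also takes part in p53-dependent death, had 74.3, 87.2, 73.1 and 87.3 CPM. Its ratios of 0.23 (0.18 to 0.28) and 0.26 (0.21 to 0.31) fell short of the 25% limit in both genotypes. The death receptor genes were nearer to their controls: Tnfrsf10b had 9.65, 10.4, 9.22 and 9.93 CPM, and Fas had 16.9, 14.8, 14.6 and 15.7 CPM. For Fas the log2 ratio was -0.19 (-0.30 to -0.09) in wild type and 0.11 (-0.01 to 0.23) in Brca2mut/WT. Ei24, a membrane protein of the endoplasmic reticulum, was at 71.1, 83.0, 78.4 and 80.9 CPM, and Triap1, an inhibitor of apoptosis, at 42.2, 46.8, 43.9 and 47.0 CPM.

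Several genes of growth arrest were also higher with HU in HR- luminal cells. Sesn2, a sestrin that limits growth signalling through mTORC1, had 10.9, 16.7, 13.2 and 17.2 CPM in the same order of libraries, with log2 ratios of 0.61 (0.50 to 0.72) and 0.39 (0.27 to 0.50). Sesn2 also responds to the stress factor Atf4, and a list of 6 integrated stress response genes that includes Sesn2 and Atf4 summed to 259 and 304 CPM in wild-type control and HU and to 284 and 317 in Brca2mut/WT, with 1 of the 6 at 0 in every library. Atf4 alone made up most of each sum, and Sesn2 is itself part of it. The sums therefore say little of the other genes on the list. The part of the integrated stress response in the level of Sesn2 was not tested. Trp53inp1, which promotes p53 activity and autophagy, had 29.4, 41.8, 33.4 and 46.0 CPM. Its ratios of 0.51 (0.44 to 0.58) and 0.47 (0.39 to 0.54) left both HU libraries above both controls. Zmat3, an RNA-binding zinc finger protein, had 11.3, 14.7, 12.7 and 16.3 CPM, with ratios of 0.38 (0.27 to 0.50) and 0.36 (0.24 to 0.48).

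Ccng1, the cyclin G1 gene whose promoter holds the pair of half-sites with 1 mismatch, had 67.8 and 93.3 CPM in control and HU cells of wild type, against 81.7 and 94.5 CPM in Brca2mut/WT. The 2 HU libraries were thus close together, and the controls differed more than they did. The log2 ratio was 0.46 (0.42 to 0.51) in wild type and 0.21 (0.16 to 0.26) in Brca2mut/WT. Psrc1, a microtubule-associated protein, showed the same order with 25.1, 33.2, 31.8 and 34.1 CPM, and ratios of 0.41 (0.33 to 0.48) and 0.10 (0.02 to 0.18). In Btg2, an antiproliferative gene that also responds to growth stimuli, the genotypes went opposite ways, with 138 and 166 CPM in wild-type control and HU and 154 and 141 in Brca2mut/WT. Plk2, a polo-like kinase, had 119 and 128 CPM in wild type and 130.2 and 105 in Brca2mut/WT, a log2 ratio of 0.11 (0.07 to 0.14) and of -0.31 (-0.36 to -0.27). Beside these, 9 immediate early genes summed to 3617 and 3041 CPM in wild-type control and HU and to 3207 and 2880 CPM in Brca2mut/WT, and their part in the levels of Btg2 and Plk2 was not tested. The part of the antibody tag pools, described below, was not tested either.

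None of the 4 repair genes was past the 25% limit in HR- luminal cells. Polk, a DNA polymerase that copies past lesions, had 12.5, 10.1, 13.1 and 10.8 CPM, so that both HU libraries were below both controls. Its log2 ratios were -0.31 (-0.43 to -0.18) and -0.27 (-0.40 to -0.14), short of the 25% limit. Xpc, a damage sensor of nucleotide excision repair, had 15.8 and 12.8 CPM in wild type and 14.5 and 14.3 in Brca2mut/WT. Ercc5, a nuclease of the same pathway, stayed between 17.2 and 18.6 CPM in all 4 libraries, and Ddb2, which recognises ultraviolet lesions, between 6.78 and 7.75 CPM. Of the metabolic genes, Dcxr, a reductase of sugars, had 46.3, 63.4, 48.9 and 56.4 CPM and ratios of 0.45 (0.40 to 0.51) and 0.21 (0.14 to 0.27). Fdxr, which passes electrons to mitochondrial enzymes, stayed between 5.36 and 5.72 CPM. Epha2, a receptor of ephrins, was lower with HU in both genotypes, at 57.1 and 40.4 CPM in wild type and 60.5 and 42.2 CPM in Brca2mut/WT. Its log2 ratios were -0.50 (-0.56 to -0.44) and -0.52 (-0.59 to -0.46), the largest declines among the 25 genes.

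Each library held 4 antibody tags, and cells in which 1 tag took at least 80% of at least 50 tag UMIs were grouped into tag pools. No key ties a tag to a mouse, passage or replicate, so pools are not replicates, and tag 1 of 1 library need not hold the same material as tag 1 of another. The pools differed in the levels of many of the genes in HR- luminal cells. For 10 of 25 genes (Trp53, Mdm2, Ccng1, Btg2, Zmat3, Psrc1, Aen, Phlda3, Ei24 and Polk) all 8 pools of tags 2 and 4 were above all 8 pools of tags 1 and 3, as they were for 15.7% of all genes, and for 0 were all 8 below, against 3.62%. Aen ranged from 5.75 to 12.2 CPM with a median of 8.52 over the pools of tags 1 and 3, and from 14.6 to 31.3 with a median of 23.2 over those of tags 2 and 4. Phlda3 ranged from 42.1 to 69.6 and from 86.1 to 175 CPM, and Mdm2 from 31.8 to 39.6 and from 49.3 to 78.7 CPM. Perp and Dcxr, by contrast, had medians of 76.7 and 75.7 CPM and of 52.9 and 53.2 CPM, so the pools did not separate on these genes. Over the 25 genes the median ratio of tags 2 and 4 to tags 1 and 3 was 1.34, and over all genes 1.10. Cycling cells, with over 100 CPM of 5 proliferation genes, made up 11.2% to 22.5% of the pools of tags 2 and 4 and 6.60% to 9.02% of those of tags 1 and 3, and their part in the separation was not tested.

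**Figure D2:**
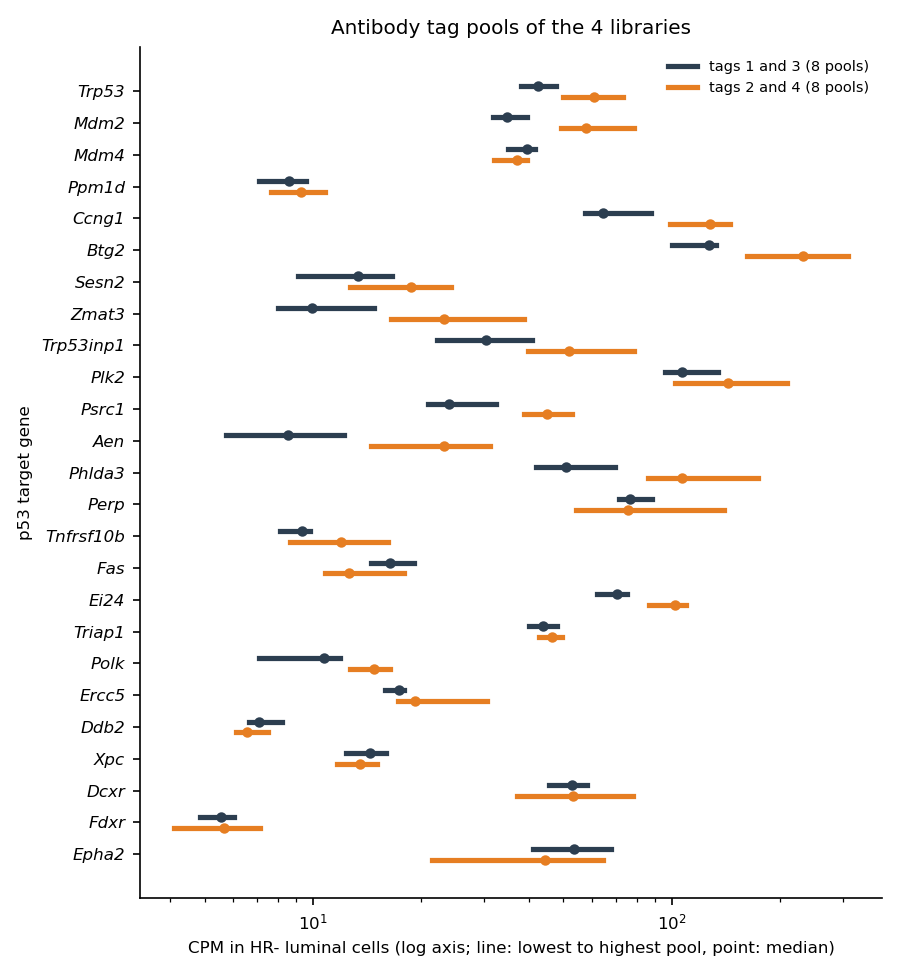
Lines run from the lowest to the highest CPM (log axis) over the 8 antibody tag pools of tags 1 and 3 (dark) and the 8 of tags 2 and 4 (orange) in HR- luminal cells of the 4 libraries, with points at the medians, for 25 p53 target genes. The lines of Aen, Phlda3, Zmat3 and Mdm2 are among the 10 that do not overlap, and those of Perp and Dcxr overlap.

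The libraries held unequal shares of these pools. In wild type tag 2 had 182 HR- luminal cells in the control and 579 with HU, against 694 and 399 in Brca2mut/WT. Each tag was also compared with the tag of the same number in the other library. Without a key these pairs need not hold matched material and are not replicates. In wild type 13 of 25 genes were higher with HU in all 4 same-tag pairs, against 15.5% of all genes, and in Brca2mut/WT 13 of 25 were, against 22.5% of all genes. Of these, 12 were shared (Trp53, Mdm2, Ccng1, Sesn2, Zmat3, Trp53inp1, Psrc1, Aen, Phlda3, Perp, Ei24 and Dcxr), a pattern seen in 7.06% of all genes. Epha2 was lower in all 8 pairs, as were 3.97% of all genes. Besides Epha2, Ddb2 was lower in all 4 pairs of wild type (15.4% of all genes) and Polk in all 4 of Brca2mut/WT (10.6%). For Aen the log2 ratios within tags 1 to 4 were 0.77, 0.65, 0.66 and 0.78 in wild type and 0.92, 1.01, 0.82 and 0.78 in Brca2mut/WT. All 8 ratios of Aen were within a narrow range. Those of Zmat3 were spread more widely, at 0.25, 0.35, 0.14 and 0.38 in wild type and 0.71, 0.17, 0.52 and 1.23 in Brca2mut/WT. With the 4 pools weighted equally, the log2 ratio of Aen was 0.72 in wild type and 0.89 in Brca2mut/WT, of Phlda3 0.43 and 0.63, of Sesn2 0.53 and 0.46, and of Epha2 -0.38 and -0.58.

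**Figure D3:**
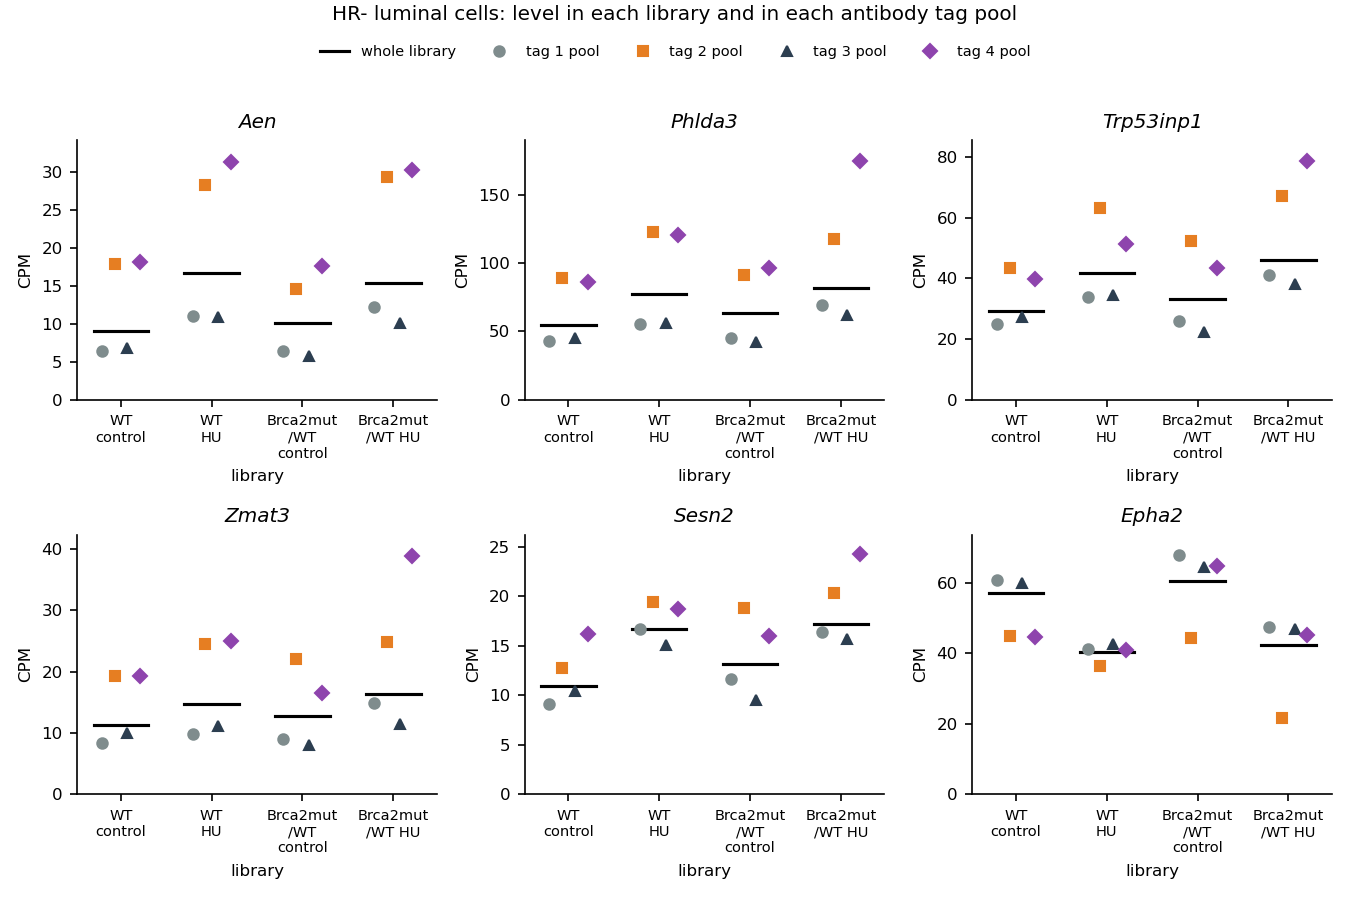
The plots give CPM in HR- luminal cells of the 4 libraries for 6 p53 target genes, with a line for the whole library and a symbol for each antibody tag pool. For Aen the pools of tags 2 and 4 lie between 14.6 and 31.3 CPM, above those of tags 1 and 3 in every library, and each symbol is higher in the HU than in the control library of its genotype.

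The counts of both genotypes depended on single pools. Without the tag 2 cells of wild-type HU, 3 genes were higher past the 25% limit in place of 8, namely Aen (0.62), Sesn2 (0.55) and Dcxr (0.37), while Trp53inp1 (0.32), Phlda3 (0.28), Ccng1 (0.25), Psrc1 (0.19) and Zmat3 (0.13) remained above 0. Epha2 (-0.47) and Polk (-0.43) were then lower. Without the tag 1 cells of the wild-type control 4 genes were higher and 2 lower, and without the tag 3 cells of wild-type HU 12 were higher and 1 lower. In Brca2mut/WT 1 gene was higher in place of 5 and 3 were lower without the tag 3 cells of the control, and 2 were higher and 2 lower without its tag 1 cells. Without the tag 2 or the tag 4 cells of Brca2mut/WT HU 3 were higher, and with the 4 pools weighted equally 8 were. With no upper limit on genes per cell and up to 10% mitochondrial content, 2 of the 5 genes of Brca2mut/WT stayed higher past the 25% limit, Aen at 0.52 and Trp53inp1 at 0.39. How many of all genes passed the limit under these settings was not computed.

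The other 9 genes were too sparse in HR- luminal cells to be called. Plk3, a stress-responsive kinase, had 2.75 to 3.72 CPM, Sesn1, another sestrin, 3.89 to 4.60, Ak1, an adenylate kinase, 3.73 to 5.15, and Slc19a2, a thiamine transporter, 4.01 to 4.56. Dglucy, an enzyme of amino acid metabolism, had 1.91 to 2.56 CPM and Pidd1, the scaffold of a caspase complex, 0.563 to 0.797 CPM. Eda2r, a receptor of the tumour necrosis factor family, had 1.63 and 2.27 CPM in wild-type control and HU and 1.95 and 2.35 CPM in Brca2mut/WT. Gdf15, a secreted stress cytokine, had 3.24 and 3.44 CPM in wild type and 1.61 and 2.93 CPM in Brca2mut/WT. Cd80, a costimulatory ligand of T cells, had 1 to 4 UMIs per library.

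In basal cells the genes did not show the pattern of the HR- luminal cells. None of 25 genes was higher past the 25% limit in wild type, where 10.9% of all genes were, and 8 were lower (Mdm2, Zmat3, Aen, Tnfrsf10b, Fas, Polk, Ak1 and Epha2), where 10.4% of all genes were. In Brca2mut/WT 1 of 25 was higher, Tnfrsf10b (9.63% of all genes), and 4 were lower, Zmat3, Aen, Polk and Ddb2 (8.22%). Zmat3, Aen and Polk were lower in both genotypes, as were 3.19% of all genes, and 0 were higher in both, against 2.68%. The median log2 ratio of the 25 genes was -0.13 in wild type and -0.02 in Brca2mut/WT, against 0.03 for all genes in each. Tested over both genotypes with genotype as a block, edgeR called 0 of the 25 genes higher (0.719% of all genes) and 0 lower (1.82%). At an unadjusted p under 0.05 by edgeR were 5 of the 25 genes and 1380 of all 8484. DESeq2 called 0 of the 25 and 84 of all 8484 genes. Aen and Zmat3 had adjusted p = 0.0741 and 0.0872 by edgeR. Without the filter on low values Zmat3 was lower, with an adjusted p of 0.0273 by edgeR, as were 414 of all 16536 genes.

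**Figure D4:**
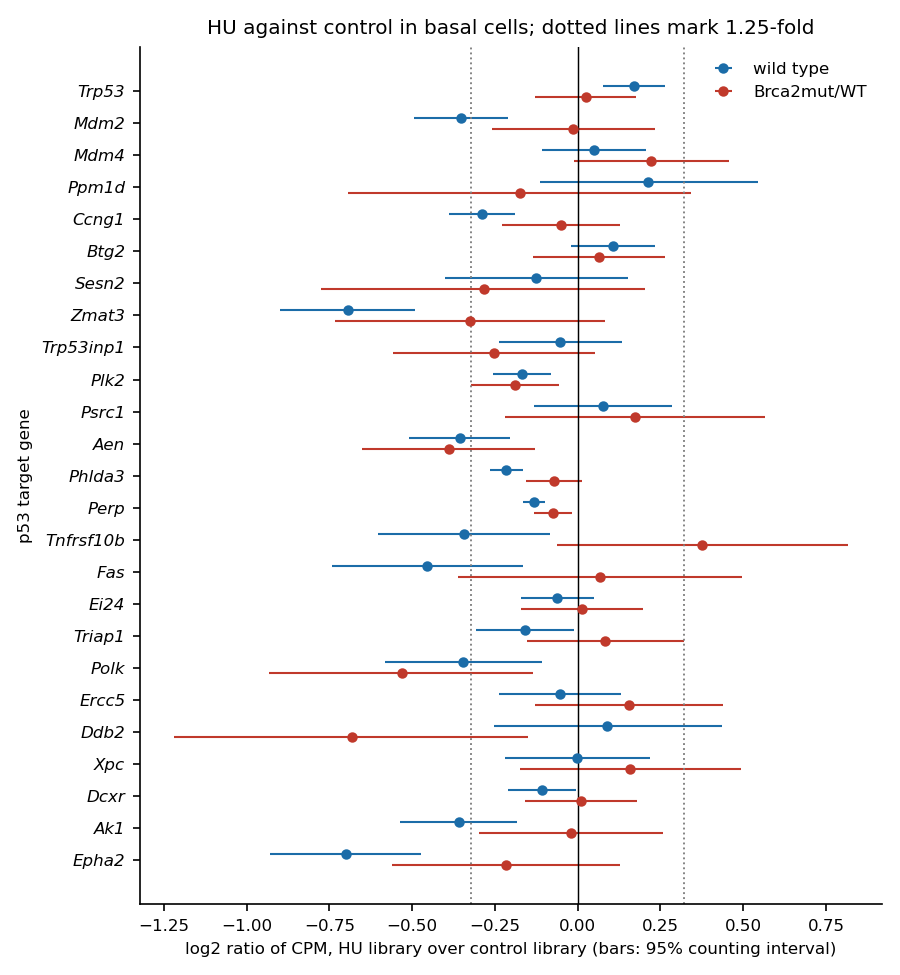
The plot gives the log2 ratio of CPM between the HU and the control library in basal cells for 25 p53 target genes, in wild type (blue) and Brca2mut/WT (red), with bars for the 95% counting interval and dotted lines at the 25% limit. Zmat3, Aen and Polk lie left of the lower dotted line in both genotypes, and the intervals are wider than in HR- luminal cells.

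In basal cells of wild type Aen had 45.9 CPM (42.6 to 49.3) in the control and 35.8 (33.2 to 38.6) with HU, against 40.8 (36.1 to 46.0) and 31.2 (27.2 to 35.5) in Brca2mut/WT. Its log2 ratios were -0.36 (-0.51 to -0.20) and -0.39 (-0.65 to -0.13), opposite in sign to those of HR- luminal cells. Zmat3 had 29.8, 18.4, 16.7 and 13.3 CPM in the same order of libraries. The wild-type control stood above the other 3 libraries, with a log2 ratio of -0.69 (-0.90 to -0.49) in wild type and -0.32 (-0.73 to 0.08) in Brca2mut/WT. Polk had 19.2, 15.1, 19.1 and 13.2 CPM and ratios of -0.35 (-0.58 to -0.11) and -0.53 (-0.93 to -0.14). Both HU libraries were therefore lower in Polk, as in HR- luminal cells. Epha2 had 23.6 and 14.5 CPM in wild type and 22.4 and 19.2 in Brca2mut/WT, with ratios of -0.70 (-0.93 to -0.47) and -0.22 (-0.56 to 0.13). Mdm2 had 53.2 and 41.7 CPM in wild type and 40.2 and 39.9 in Brca2mut/WT, where the wild-type control again stood alone. Fas had 13.7 and 9.97 CPM in wild type and 13.3 and 13.9 CPM in Brca2mut/WT. Tnfrsf10b had 16.1 and 12.7 CPM in wild type and 11.5 and 14.9 in Brca2mut/WT, so its genotypes went opposite ways, with a Brca2mut/WT ratio of 0.37 (-0.06 to 0.82). Ak1 had 34.3, 26.7, 31.9 and 31.4 CPM, and Ddb2 had 8.15, 8.67, 11.5 and 7.16 CPM. Trp53 had 103 and 116 CPM in wild type and 101 and 103 CPM in Brca2mut/WT, and Mdm4 had 37.9, 39.2, 40.7 and 47.4 CPM.

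The basal values rested on few cells per tag and moved with them. In wild type tag 2 held 43 basal cells in the control and 282 with HU, while tag 4 held 280 and 128. Within tag 1 of wild type 8 genes were higher with HU past the 25% limit and 0 lower, whereas within tag 3 there were 3 higher and 11 lower. For Aen the same-tag log2 ratios were 1.21, -0.18, -0.78 and -0.83 in wild type, and -0.08, -0.85 and 0.15 for tags 1, 3 and 4 in Brca2mut/WT. Of the 25 genes 2 were lower in all 4 pairs of wild type (Mdm2 and Epha2), against 10.2% of all genes, and 2 in all 3 pairs of Brca2mut/WT (Trp53inp1 and Ddb2), against 12.8%. None was lower in all pairs of both genotypes, against 2.76% of all genes. Psrc1 was higher in all 4 pairs of wild type (16.6% of all genes), and Mdm4, Ei24, Triap1 and Ercc5 in all 3 of Brca2mut/WT (21.3%), with 0 in both (6.42%). With pools weighted equally 2 of the 8 wild-type genes stayed lower past the 25% limit, Zmat3 at -0.70 and Fas at -0.33. Without cycling cells, which were 19.0% of basal cells in the control and 23.6% with HU, 4 did. Without the tag 4 cells of the wild-type control the ratio of Aen was 0.13. In Brca2mut/WT the split of 1 higher and 4 lower became 4 and 1 without the tag 4 cells of the control, and 2 and 8 without its tag 3 cells. Within tags 1, 3 and 4 of Brca2mut/WT 8, 5 and 3 genes were higher and 3, 8 and 8 lower. For the counts past the 25% limit within single tags, with equal weights or without some cells, the share of all genes was not computed.

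HR+ luminal cells numbered 123 to 176 per library, and 17 of the 34 genes passed the filter. Perp was higher past the 25% limit in both genotypes (2.77% of all genes), with 181 and 270.4 CPM in wild-type control and HU and 240.5 and 307 in Brca2mut/WT. Its log2 ratios were 0.58 (0.44 to 0.71) and 0.35 (0.21 to 0.50). In wild type 4 of 17 genes were higher (Trp53inp1, Plk2, Aen and Perp), against 11.4% of all genes, and none was lower, against 10.9%. In Brca2mut/WT 2 were higher (Trp53 and Perp), against 13.0%. Aen had 44.5 and 61.7 CPM in wild type and 71.6 and 65.2 CPM in Brca2mut/WT, where the control was already above both wild-type libraries. Trp53 had 81.0, 96.3, 67.0 and 92.6 CPM and log2 ratios of 0.25 (0.03 to 0.47) and 0.47 (0.20 to 0.74). Psrc1 and Epha2 were lower in Brca2mut/WT, against 10.4% of all genes, and none was lower in both genotypes, against 3.67%. Psrc1 had 31.0 and 19.4 CPM there, and Epha2 had 50.8 and 36.6 CPM. Gdf15, which did not pass the filter, had 41 and 78 UMIs in wild type and 45 and 3 UMIs in Brca2mut/WT, a log2 ratio of 1.08 (0.51 to 1.66) and of -3.76 (-6.09 to -2.12). Tested over both genotypes as above, edgeR called none of the 17 genes higher or lower (0.0% and 0.0% of all genes). At an unadjusted p under 0.05 by edgeR were 2 of the 17 genes and 508 of all 4578. DESeq2 called 0 of the 17 and 21 of all 4578 genes. Perp had an adjusted p of 0.381 by edgeR. Only 1 tag had at least 20 HR+ luminal cells in both libraries of a genotype. The stromal gene Dcn had 702 to 1661 CPM in these cells, while the other 4 stromal markers were each at 0.732 CPM or below.

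Between genotypes few of the genes passed the 25% limit in HR- luminal cells. Psrc1 was the only one of 25 that was higher past the 25% limit in the Brca2mut/WT control than in the wild-type control, at 31.8 against 25.1 CPM, a log2 ratio of 0.34 (0.26 to 0.42), where 3.51% of all genes were higher. Smaller differences beyond counting error were present between the controls, with log2 ratios of Brca2mut/WT to wild type of 0.27 (0.22 to 0.32) for Ccng1, 0.27 (0.15 to 0.39) for Sesn2 and 0.21 (0.16 to 0.27) for Phlda3. None was lower past the limit, against 1.96% of all genes, and none was past it between the HU libraries, where 3.21% of all genes were higher and 1.32% lower. Tags 1 to 4 held 1009, 694, 1013 and 418 HR- luminal cells in the Brca2mut/WT control. The wild-type control had 1687, 182, 1539 and 393. Psrc1, Ccng1 and Phlda3 were higher in all 8 pools of tags 2 and 4 than in those of tags 1 and 3. The part of the tags in the differences between the controls was not tested. In basal cells 6 of 25 genes were lower in the Brca2mut/WT control than in the wild-type control, Mdm2, Ccng1, Zmat3, Psrc1, Phlda3 and Tnfrsf10b, where 7.78% of all genes were, and Ddb2 was higher, as were 7.66%. Ccng1 had 76.7 CPM (70.3 to 83.7) in the Brca2mut/WT control and 107 (102 to 112) in the wild-type control, and Phlda3 had 333 and 422 CPM. The log2 ratio was -0.83 (-1.15 to -0.53) for Zmat3 and -0.34 (-0.41 to -0.27) for Phlda3. Tag 2 held 1 basal cell in the Brca2mut/WT control and 43 in the wild-type control, and its part in these differences was not tested. Between the HU libraries Fas and Epha2 were higher in basal cells of Brca2mut/WT (12.7% of all genes) and Sesn2, Zmat3 and Psrc1 lower (10.9%). In HR+ luminal cells of the controls, Aen, at 0.68 (0.40 to 0.97), and Perp, at 0.41 (0.26 to 0.56), were higher in Brca2mut/WT, against 9.79% of all genes, and none was lower, against 7.93%. With HU, Mdm2 and Psrc1 were lower there, against 6.68% of all genes, and none was higher, against 10.6%.

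Many of the genes differed in level between lineages, as did many of all genes. Against HR- luminal cells a larger share of them was higher, and a smaller share lower, than of all genes. The list was chosen with earlier results of these data known, so these shares are a description. The lineages were compared within the 4 libraries with edgeR's quasi-likelihood test, with the library as a block. Benjamini-Hochberg adjustment was over 9739 genes, and 30 of the 34 genes were tested. These included Sesn1, Plk3, Gdf15, Ak1 and Slc19a2, with means of 4.24, 3.10, 2.80, 4.61 and 4.34 CPM in HR- luminal cells. Those means are under the 5 CPM required above for calls between libraries in that lineage. The lineage test thus did not require 5 CPM in HR- luminal cells. In basal against HR- luminal cells 13 of 30 genes (43.3%) were higher at an adjusted p under 0.05, against 33.7% of all genes. Lower were 7 (23.3%), against 34.8%. At least 2-fold higher were Trp53, Plk3, Aen, Phlda3, Perp and Ak1 (8.57% of all genes), and at least 2-fold lower were Btg2 and Epha2 (9.44%). In HR+ against HR- luminal cells 17 were higher (56.7%) and 4 lower (13.3%), against 34.1% and 35.4% of all genes. Plk2, Plk3, Gdf15, Aen, Phlda3, Perp, Polk, Xpc and Ak1 were at least 2-fold higher (30.0%, against 10.0% of all genes). Fas was at least 2-fold lower (3.33%, against 12.2%).

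**Figure D5:**
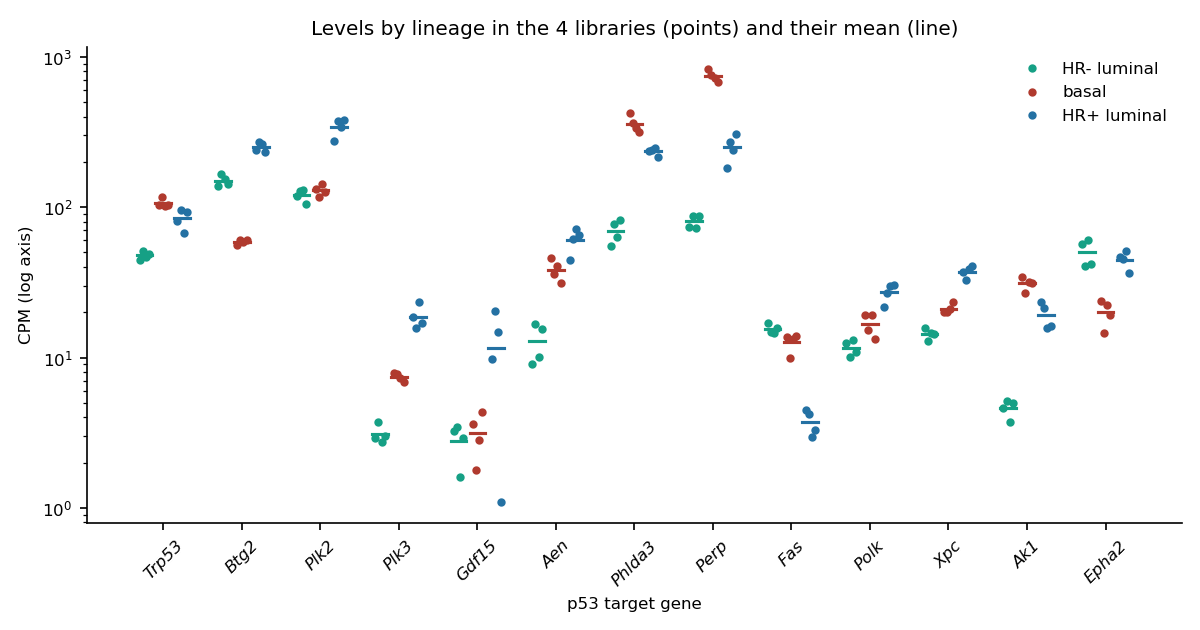
The plot gives CPM (log axis) of the 13 p53 target genes that differed at least 2-fold from HR- luminal cells in basal or HR+ luminal cells, with a point for each of the 4 libraries and a line at their mean. Perp and Phlda3 are highest in basal cells in every library, Plk2 and Xpc in HR+ luminal cells, and Fas is lowest in HR+ luminal cells.

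Perp, which holds desmosomes together in stratified epithelia, had 749 ± 64.1 CPM (SD, n = 4 libraries) in basal, 249.8 ± 53.2 in HR+ luminal and 80.5 ± 7.82 in HR- luminal cells. The log2 fold change of basal over HR- luminal cells was 3.11 (SE 0.13, adjusted p = 1.52e-08 by edgeR). Phlda3 had 359 ± 46.2, 235 ± 13.2 and 69.5 ± 12.4 CPM in basal, HR+ luminal and HR- luminal cells, with log2 fold changes of 2.25 and 1.58 over HR- luminal cells. Aen was highest in HR+ luminal cells at 60.7 ± 11.6 CPM, followed by basal cells at 38.4 ± 6.34 and HR- luminal cells at 12.8 ± 3.80. The lineage in which Aen was higher with HU in both genotypes was thus the one with its lowest level. Ak1 had 31.1 ± 3.17 CPM in basal, 19.2 ± 3.80 in HR+ luminal and 4.61 ± 0.630 in HR- luminal cells, a log2 fold change of 2.62 (SE 0.13) in basal over HR- luminal cells. Trp53 had 106 ± 6.93, 84.2 ± 13.2 and 47.9 ± 2.99 CPM in the same order, with a fold change of 1.02 on the log2 scale (SE 0.06, adjusted p = 2.2e-07 by edgeR) in basal over HR- luminal cells. Mdm2 was higher in HR+ than in HR- luminal cells by 0.60 (SE 0.11, adjusted p = 0.000813 by edgeR). Its basal level of 43.7 ± 6.34 CPM was not called different from the HR- luminal 42.5 ± 3.85 (adjusted p = 0.52 by edgeR).

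The order of the lineages differed between genes. Btg2 had 252 ± 17.5 CPM in HR+ luminal, 149.7 ± 12.8 in HR- luminal and 59.0 ± 2.17 in basal cells. Epha2 had 50.1 ± 10.2 CPM in HR- luminal cells against 19.9 ± 4.05 in basal cells, a log2 fold change of -1.46 (SE 0.10). Fas had 15.5 ± 1.06 CPM in HR- luminal, 12.7 ± 1.83 in basal and 3.74 ± 0.727 in HR+ luminal cells, and fell by 2.21 on the log2 scale (SE 0.16) from HR- to HR+ luminal cells. Plk2 and Plk3 were higher in HR+ than in HR- luminal cells by 1.32 and 2.40 on the log2 scale, and Xpc and Polk by 1.18 and 1.03. Gdf15 had 11.5 ± 8.23 CPM in HR+ luminal cells, a spread that includes the 3 UMIs in Brca2mut/WT HU, and 2.80 ± 0.824 in HR- luminal cells. All 8 and all 10 calls of at least 2-fold kept an adjusted p under 0.05 in the 12 alternative fits of each contrast. Of the weaker calls, Polk, Tnfrsf10b, Sesn2 and Ei24 in basal cells and Epha2 and Dcxr in HR+ luminal cells lost it in at least 1.

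A second list of 28 genes, made of other p53 targets and of partners of p53, was followed for comparison, and all 28 were found. In HR- luminal cells 20 passed the filter, of which 2 were higher past the 25% limit in wild type (Cdkn1a and Bax), against 3.6% of all genes, and 0 in Brca2mut/WT, against 3.06%. Ckap2 was lower in Brca2mut/WT, as were 4.05% of all genes. Cdkn1a, Bax and Ckap2 were also the 3 of 20 that were higher in the Brca2mut/WT control than in the wild-type control, against 3.51%. Tested over both genotypes, Cdkn1a, Bax and Sfn were higher (4.94% of all genes) and Ckap2 and Trp53bp1 lower (8.3%). Of these DESeq2 called Cdkn1a and Bax, against 237 of all 9364 genes. EdgeR called none of them without the block (70 of all 9364 genes) or without the filter (0 of 19595). Cdkn1a had 171 and 262 CPM in control and HU cells of wild type and 246 and 272 CPM in those of Brca2mut/WT. The wild-type control stood apart from the other 3 libraries, with log2 ratios of 0.62 (0.59 to 0.65) and 0.14 (0.11 to 0.17). Bax, an effector of mitochondrial death whose promoter site is printed above, had 118 and 172 CPM in wild type and 148 and 170.2 in Brca2mut/WT. Cdkn1a had a median of 157 CPM over the pools of tags 1 and 3 and 466 over those of tags 2 and 4. Bax had medians of 107 and 268 CPM. All 8 pools of tags 2 and 4 were above all 8 others for Cdkn1a, Bax, Rps27l and Hipk2 (15.7% of all genes). They were below for Trp53i13 (3.62%). The part of the tags in the differences between libraries was not tested. Cdkn1a and Bax were, with Rchy1, the genes of this list that were higher with HU in all 8 same-tag pairs, as were 7.06% of all genes. The median log2 ratio of the 20 genes was -0.04 in wild type and 0.02 in Brca2mut/WT. In basal cells Cdkn1a was the only gene of 22 that was past the 25% limit in the same direction in both genotypes, and it was lower, as were 3.19% of all genes. It had 252 and 147 CPM in wild-type control and HU and 160.3 and 108 CPM in Brca2mut/WT, log2 ratios of -0.78 (-0.85 to -0.71) and -0.57 (-0.71 to -0.44). Tested over both genotypes it fell by 0.71 on the log2 scale (SE 0.10, adjusted p = 0.00632 by edgeR), as 1.82% of all genes were lower. EdgeR without the block called none of the 22 and 0 of all 8484 genes. It was lower in each of the 4 and 3 same-tag pairs. Aen, whose signs matched those of Cdkn1a in each lineage, did not show this pattern in basal cells.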

How the data were processed

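Counts were made by the authors with Cell Ranger (version 6.0.2 in the methods and labels, 6.1.1 in the file headers) on mm10 from 10x Chromium version 3 libraries and deposited as unnormalized UMI counts per gene and cell. Antibody tags were left out of gene totals. Cells were filtered and gated as described, no doublet caller was run, and cells with a single dominant tag were an alternative. UMIs were summed per lineage and library. Levels have exact Poisson intervals and ratios exact conditional binomial intervals (95%), which cover counting error only, since 1 library per condition gives no spread within a genotype. The design text of the series states 34200 cells, while the matrices held 33268 barcodes and the filter in the methods kept 17360.

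Lineages were compared with edgeR 4.0.16 (TMM scaling, library block, R 4.3.3), with DESeq2 1.42.0 as an alternative. HU was tested over both genotypes with genotype as a block in the same way, on the summed counts of each lineage. With the library as a block, lineage p-values rest on how the difference between lineages varied over 4 libraries. These libraries differ in genotype and treatment. Tables and plots used Python 3.11.15, numpy 2.4.6, scipy 1.17.1, pandas 2.3.3 and matplotlib 3.10.9. The scripts were tested on simulated data.

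Full values went to genes past the 25% limit in a genotype in HR- luminal or basal cells, to Trp53, Mdm2 and Mdm4, and to genes past the lineage test at 2-fold. Other pathway genes are given by counts, with values for Cdkn1a and those past the 25% limit in the same direction in both genotypes. Genes named beyond this rule (among them Perp in HR+ luminal cells, Polk, Xpc, Btg2, Plk2, Gdf15 and Bax) were chosen after their values were seen. The members and lists were chosen with earlier results of these data known. The test over both genotypes, the comparison within tags and the grouping of tags 2 and 4 were chosen after seeing the data. Promoter windows are from RefSeq.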

Additional observations from a re-analysis of the deposited data

Results flagged for a closer look

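Several genes had HU to control ratios of opposite sign in the 2 genotypes, with counting intervals of both away from 0. In HR- luminal cells these were Btg2, with log2 ratios of 0.27 in wild type and -0.13 in Brca2mut/WT, and Plk2, with 0.11 and -0.31. In HR+ luminal cells they were Btg2 (0.16 and -0.17), Cdkn1a (0.16 and -0.33) and Sfn, an epithelial cell cycle regulator (0.56 and -0.21). In basal cells it was Rps27l, a ribosomal protein paralog induced by p53 (-0.15 and 0.080). For Btg2 in HR- luminal cells the same-tag ratios were of both signs in each genotype, 0.00, 0.93, -0.35 and 0.51 for tags 1 to 4 in wild type and -0.08, 0.38, -0.25 and 0.36 in Brca2mut/WT. Medians over the pools of tags 1 and 3 and of tags 2 and 4 were 127 and 233 CPM for Btg2. For Plk2 they were 107 and 143 CPM, with overlapping ranges. From control to HU, tag 2 went from 182 to 579 HR- luminal cells in wild type and from 694 to 399 in Brca2mut/WT. The part of the tags was not tested. The differences between genotypes were not tested, since each condition had 1 library.

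Aen, Perp and Cdkn1a were higher with HU in HR- luminal cells and lower in basal cells of both genotypes, with intervals away from 0. The log2 ratios of Aen were 0.88 and 0.62 in HR- luminal cells of wild type and Brca2mut/WT and -0.36 and -0.39 in basal cells. Those of Perp were 0.23 and 0.26 against -0.13 and -0.075, and those of Cdkn1a 0.62 and 0.14 against -0.78 and -0.57. In basal cells the same-tag pairs of Aen and Perp were of both signs, while those of Cdkn1a were below 0 throughout. The difference between lineages was not tested.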

How the results depend on the processing

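HU and control could not be paired by mouse or replicate. Each condition had 1 library, which the labels describe as 2 replicates, and the tags carry no key to replicates. The genotype was the only block for HU, and leaving out a library leaves that fit no residual degrees of freedom. It called 11 of 25 genes in HR- luminal cells, 2 without the block, 0 without the filter on low values and 6 with DESeq2. Of all 9364 genes it called 1240, 70 without the block and 237 with DESeq2, and without the filter 0 of 19595. In basal cells it called 0, against 215 of all 8484 genes, with 1 without that filter (Zmat3), against 631 of 16536. In HR+ luminal cells it called 0 in each of the 4 fits. These fits were chosen after seeing the data. Genes past the 25% limit, of 25 in HR- luminal and basal cells and 17 in HR+ luminal cells, numbered 9, 8 and 4 in wild type (HR- luminal, basal, HR+ luminal) and 6, 5 and 4 in Brca2mut/WT. With a limit of 1.5-fold they numbered 2, 2 and 0 in wild type and 1, 1 and 1 in Brca2mut/WT. With a filter of 20 CPM, wild-type basal cells had 3, Brca2mut/WT HR- luminal cells 3 and Brca2mut/WT basal cells 1. Without cycling cells wild-type basal cells had 4, and with tag pools weighted equally basal cells had 2 in wild type and 3 in Brca2mut/WT. With no upper limit on genes per cell and under 10% mitochondrial content, the counts were 8 in wild-type HR+ luminal cells and 3, 3 and 7 in HR- luminal, basal and HR+ luminal cells of Brca2mut/WT. With no filter on low values and a pseudocount of 1 CPM, HR+ luminal cells had 7 in wild type and 11 in Brca2mut/WT. Within single tags, an alternative chosen after seeing the data, the counts were 14 in wild-type basal cells of tag 3, 14 in Brca2mut/WT HR- luminal cells of tag 4, and 11, 13 and 11 in Brca2mut/WT basal cells of tags 1, 3 and 4. The cause of these shifts was not tested, except that a stricter limit or filter leaves fewer genes to call. The share of all genes past the 25% limit was not computed under these alternatives or with 1 tag left out.

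Leaving out the cells of 1 tag of 1 library at a time, the counts ranged from 5 to 13, 4 to 9 and 4 to 7 in wild-type HR- luminal, basal and HR+ luminal cells. In Brca2mut/WT they ranged from 4 to 8, 4 to 10 and 4 to 11. The counts moved most without tag 2 of wild-type HU (5 in HR- luminal cells), tag 4 of the wild-type control (4 in basal and 7 in HR+ luminal cells), tag 3 of the Brca2mut/WT control (10 in basal cells) and tag 4 of the Brca2mut/WT control (11 in HR+ luminal cells). In wild-type basal cells the log2 ratio of Aen ranged from -0.48 to 0.13, the latter without tag 4 of the control. In Brca2mut/WT basal cells that of Zmat3 ranged from -0.62 to 0.27, the latter without tag 4 of the control. Leaving out 1 library at a time, 17 to 21 genes passed the lineage test in basal and 20 to 22 in HR+ luminal cells, against 20 and 21. Without the library block the lineage test lost Epha2 in HR+ luminal cells (adjusted p = 0.103 by edgeR) and no other of the 20 and 21 calls. Equal weights for tag pools were not run in HR+ luminal cells, which had 1 usable pair of pools.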

Other observations

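Outside the p53 genes, HR- luminal cells showed other differences that both genotypes shared. The 4 genes named here were chosen after their values were seen. Lalba, the milk protein alpha-lactalbumin, had 348 and 570.5 CPM in wild-type control and HU and 331 and 641 CPM in Brca2mut/WT. It belongs to the list of 5 HR- markers, which did not follow it in both genotypes. Their sum went from 5726 to 5384 CPM in wild type and from 4660 to 5233 CPM in Brca2mut/WT. Fos, an immediate early transcription factor, had 1241 and 980 CPM in wild type and 1078 and 937 CPM in Brca2mut/WT, and Atf3, a stress-induced factor, had 24.2 and 15.9 CPM and 19.2 and 13.6 CPM. Atf4, the central factor of the integrated stress response, had 142 and 175 CPM and 145 and 183 CPM. Each of these values comes from 1 library. Over both genotypes, with genotype as a block and 1 residual degree of freedom, Lalba was higher with HU by 0.82 on the log2 scale (SE 0.09, adjusted p = 3.72e-09 by edgeR) and Atf4 by 0.30 (SE 0.08, adjusted p = 0.00482 by edgeR). Atf3 fell by 0.57 (SE 0.07, adjusted p = 1.09e-07 by edgeR) and Fos by 0.28 (SE 0.10, adjusted p = 0.0392 by edgeR). By edgeR 4.94% of all genes were higher and 8.3% lower, and DESeq2 called 237 of 9364 genes, among them all 4. Without the genotype block edgeR called 70 of 9364 genes, and whether these 4 were among them is not given here. The part of the antibody tag pools in the 4 genes was not tested. Without the filter on low values edgeR called 0 of 19595 genes, with 2757 at an unadjusted p under 0.05.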
